A study of Homo sapiens with 18 samples.

Results

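Of 10 circadian clock genes chosen by name (PER1, PER2, PER3, CRY1, CRY2, CLOCK, ARNTL, NR1D2 and the casein kinase 1 genes CSNK1D and CSNK1E), 5 had fitted kinetics in a table of 8996 genes from HEK293T cells: CRY1, CLOCK, NR1D2, CSNK1D and CSNK1E. The other 5, all 3 Period genes, CRY2 and ARNTL, were absent from the table used here, and no value can be given for them. HEK293T is a human embryonic kidney cell line, here with the genotype given as WT. Cells were exposed for 3 h to STM2457, a small-molecule inhibitor of the m6A methyltransferase METTL3, or to its solvent DMSO, and then to 100 µM of the nucleoside s4U for 90 or 180 min, or to no s4U, with 3 samples in each of the 6 groups. SLAM-seq reads the incorporated s4U as T-to-C changes, which separates RNA made during labelling from older RNA. Each gene has a single fitted half-life and a single synthesis rate for each treatment, so no replicate spread, read depth or p-value stands behind any difference below. The header gives no time unit, and hours were inferred from the ceiling of the values. The synthesis rate has no stated unit, and it is compared only between treatments of the same gene.

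The mammalian clock is a feedback loop of transcription. CLOCK and its partner ARNTL (also called BMAL1) activate the Period and Cryptochrome genes, whose proteins return to the nucleus and repress that activity, while NR1D2 (REV-ERB-beta) is a nuclear receptor that represses ARNTL. CSNK1D and CSNK1E phosphorylate the Period proteins and so set their stability and the speed of the loop. N6-methyladenosine (m6A) is a modification of mRNA that readers of the YTH family can couple to decay, and loss of m6A methylation has been reported to lengthen the circadian period in cultured cells.

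The sequence motifs that methylation of this kind can use lie at different distances from exon junctions in these genes. The motif searched was DRACH, which reads A, G or T, then A or G, then A, then C, then A, C or T; it was read on the transcript strand, and overlapping matches were counted. A motif was taken as far from a junction when its central A lay at least 100 nt from the nearest exon junction, because junctions are known to keep m6A away. NR1D2 held 14 far motifs in its coding sequence, more than 80.7% of the 8611 genes with a coding transcript, CLOCK held 4, CRY1 held 3, and CSNK1D and CSNK1E held 0. The median of far coding motifs over all genes was 3, with quartiles of 1 and 10. A coding motif at any place was found in 99.9% of genes, and a far one in 76.4%. Counted at any place, coding motifs numbered 53 in CLOCK, 35 in CRY1, 31 in NR1D2, 24 in CSNK1D and 16 in CSNK1E. Per kb of coding sequence NR1D2 held 17.8, under the median of 20 over all genes. A stretch of NR1D2 and short windows of the other genes are shown because they carry the contrast in far motifs. Motifs are in capitals. All come from GENCODE release 29 transcripts (GRCh38) and run 5′ to 3′ along the mRNA.
NR1D2, exon 5, chr3:23962069-23962349, plus strand: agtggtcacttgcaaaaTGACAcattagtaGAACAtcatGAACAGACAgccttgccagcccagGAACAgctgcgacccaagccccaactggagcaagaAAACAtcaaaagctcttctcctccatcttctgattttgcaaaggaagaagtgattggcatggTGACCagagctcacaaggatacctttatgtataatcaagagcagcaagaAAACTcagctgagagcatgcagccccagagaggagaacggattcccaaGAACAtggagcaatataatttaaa
NR1D2, exon 5, chr3:23962407-23962431, plus strand: gcatctcaatGGACAgttcaaaggg
CRY1, exon 7, chr12:106999673-106999697, minus strand: gcggaaggccGGACAggctttccat
CLOCK, exon 22, chr4:55435444-55435468, minus strand: agccggcacaGGACTGACAgcttgc
CSNK1D, exon 3, chr17:82255481-82255505, minus strand: caagcctggaGGACCtcttcaactt
CSNK1E, exon 4, chr22:38302913-38302937, minus strand: ctagcctcgaGGACCtgttcaactt
The NR1D2 stretch is coding nucleotides 610 to 890, counted from the A of the start codon, and it holds 9 motifs, all of them far. It lies in a coding exon of 629 nt, which carries 12 of the 14 far motifs, and the other 2 are in the last exon. The CLOCK window holds 2 far motifs that share a T, GGACT at coding position 2500 and TGACA at 2504. In the kinases the motif shown is at coding position 272 in both genes and 65 nt from a junction. The farthest coding motif of CSNK1D was 74 nt from a junction, and that of CSNK1E was the one shown.

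**Figure D1:**
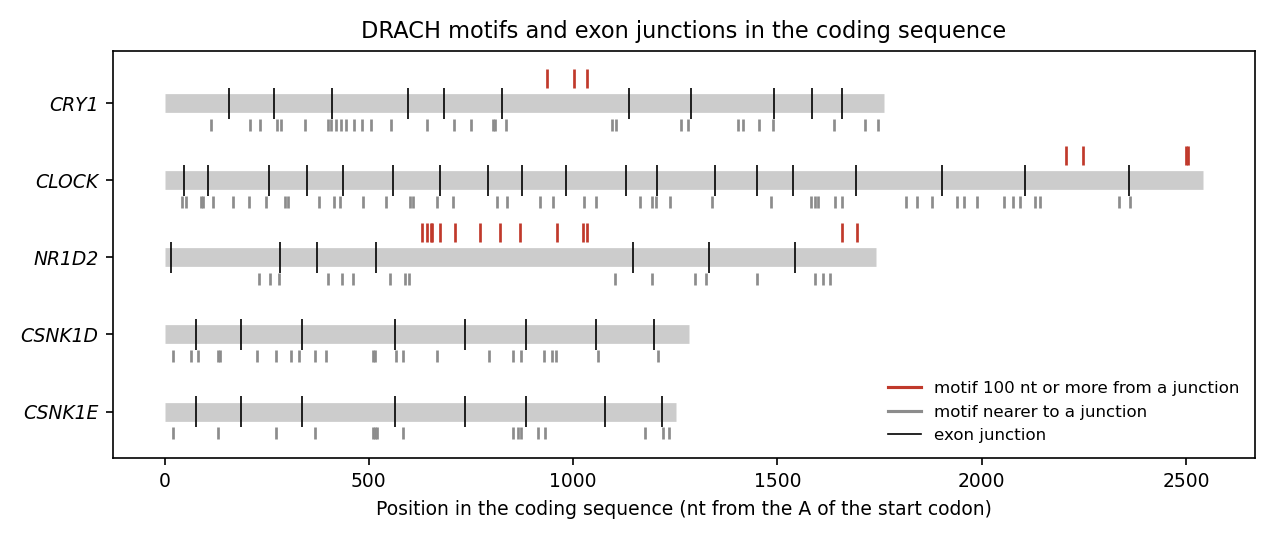
Coding sequences of the 5 clock genes in the table, to scale in nt from the start codon, with exon junctions as black lines, motifs at least 100 nt from a junction as red ticks above and nearer motifs as grey ticks below. NR1D2 has 14 red ticks, 12 of them in a single exon, against 4 in CLOCK, 3 in CRY1 and 0 in CSNK1D and CSNK1E.

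The first question was how inhibition of METTL3 moved the half-lives of these mRNAs. CLOCK was shorter-lived in STM2457, NR1D2 was at the ceiling of the table, and CRY1, CSNK1D and CSNK1E differed between treatments by less than 1.5-fold, the fixed rule of size used throughout. One of 5 genes was thus longer-lived past 1.5-fold, beside 28.5% of all genes in the table, and 1 was shorter-lived, beside 24.9% of all genes. These shares are near the background, so the counts mark no common direction of the clock genes. The median log2 ratio of STM2457 to DMSO was -0.14 for the 5 genes and -0.01 over all genes.

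CLOCK (ENSG00000134852.15, chr4:55427903-55547138), the activating partner of ARNTL, had a half-life of 1.28 h in STM2457 and 2.16 h in DMSO. It was 1.69-fold shorter-lived, a log2 ratio of -0.76, and would not pass a rule of 2-fold. In STM2457 its half-life was lower than that of all but 2.84% of genes, against 14.5% in DMSO. Longer half-lives were more frequent than shorter ones among genes of like DMSO half-life. In the decile that holds CLOCK (1.81 to 2.61 h), 40.0% of 900 genes were longer-lived past 1.5-fold and 5.67% shorter-lived. The median log2 ratio in that decile was 0.33. Deciles were cut on the DMSO half-life, which is also the denominator of the ratio. Error in that value would raise the ratios of low deciles, and its part was not tested. The median log2 ratio was 0.46 in the lowest decile and -0.47 in decile 8. The implied share of new CLOCK mRNA after 180 min was 80.3% in STM2457 and 61.8% in DMSO. CLOCK overlaps TMEM165 on the opposite strand, with 76 nt shared between exons of the genes. TMEM165 had half-lives of 1.36 h in STM2457 and 2.07 h in DMSO, close to those of CLOCK. Its synthesis rate was 285 in STM2457 and 210 in DMSO, a log2 ratio of 0.44 against -0.12 for CLOCK. No source used here says whether reads were counted by strand. The part of TMEM165 reads in the CLOCK values was not tested.

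CRY1 (ENSG00000008405.12, chr12:106991364-107093829), a repressor of the CLOCK and ARNTL pair, had a half-life of 4.95 h in STM2457 and 4.80 h in DMSO. Its log2 ratio of 0.04 was the smallest in size among the 5 genes, and the difference came to 8.69 min. The implied share of new CRY1 mRNA after 180 min was 34.3% in STM2457 and 35.2% in DMSO.

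NR1D2 (ENSG00000174738.13, chr3:23945260-23980618) had a half-life of 69.3 h in STM2457, the largest value the table holds, and 3.19 h in DMSO. The log2 ratio was 4.44 and 145 of the 8996 genes had a larger one. The ceiling corresponds to a decay rate of 0.01 per h, and 980 genes sat there in STM2457 against 229 in DMSO, so the size of the ratio is set by the ceiling. Among the 899 genes in the same decile of DMSO half-lives, 64 (7.12%) reached the ceiling in STM2457. From the half-lives, 2.96% of NR1D2 mRNA would be new after 180 min of labelling in STM2457 and 47.8% in DMSO; these shares are computed from the fits, not measured.

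Both kinase genes had log2 half-life ratios below 0. CSNK1D (ENSG00000141551.14, chr17:82239023-82273731) had a half-life of 3.02 h in STM2457 and 3.33 h in DMSO, a log2 ratio of -0.14. CSNK1E (ENSG00000213923.12, chr22:38290691-38318084) had 3.18 h in STM2457 and 3.85 h in DMSO, a log2 ratio of -0.28. Both ratios are within 1.5-fold, and the half-lives were 18.2 min shorter in STM2457 for CSNK1D and 40.4 min shorter for CSNK1E. After 180 min the implied share of new mRNA was 49.7% in STM2457 and 46.5% in DMSO for CSNK1D, and 48.0% in STM2457 and 41.7% in DMSO for CSNK1E. The read-through gene TPTEP2-CSNK1E shares 1316 nt of exons with CSNK1E on the same strand and was listed separately, at 2.81 h in STM2457 and 3.72 h in DMSO (log2 ratio -0.41). Reads of the shared exons can be split between these entries, so the CSNK1E values are uncertain and TPTEP2-CSNK1E is no second measurement. Genes on the opposite strand also overlap exons of CSNK1D, among them SLC16A3 over 482 nt and AC132872.4 over 1262 nt; neither is in the table.

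In DMSO the order of half-lives was CRY1, CSNK1E, CSNK1D, NR1D2 and CLOCK, from 4.80 to 2.16 h, all under the median of 5.61 h over all genes. In STM2457 it was NR1D2, CRY1, CSNK1E, CSNK1D and CLOCK, and the 4 genes other than NR1D2 lay under the median of 5.39 h. With 1 fitted value per gene and treatment, it is not known which neighbours in either order differ beyond error.

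**Figure D2:**
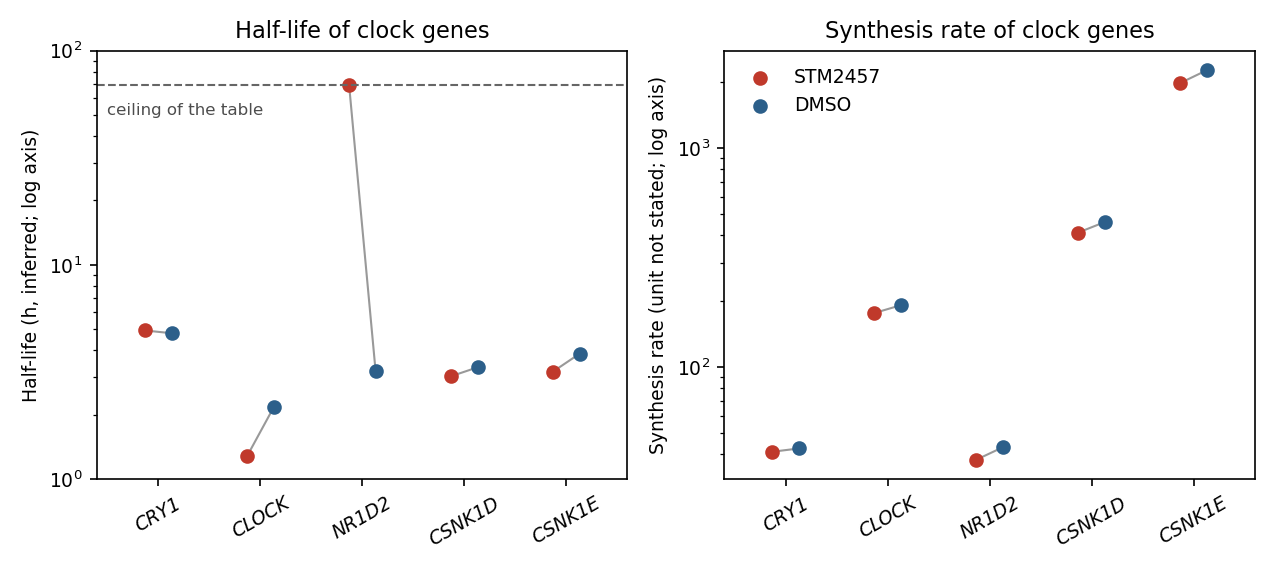
Fitted half-life (left, inferred hours, log axis) and synthesis rate (right, unit not stated, log axis) of the 5 clock genes in STM2457 (red, left point of each pair) and DMSO (blue, right point); each point is a single value with no replicate error. NR1D2 in STM2457 lies on the ceiling of 69.3 h, CLOCK is at 1.28 h in STM2457 against 2.16 h in DMSO, and each synthesis rate is slightly lower in STM2457.

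The second question was whether synthesis moved with decay. None of the 5 genes passed 1.5-fold in either direction, beside 12.6% of all genes with a higher synthesis rate and 13.2% with a lower one. Log2 ratios of STM2457 to DMSO were -0.05 for CRY1, -0.12 for CLOCK, -0.16 for CSNK1D and -0.19 for both NR1D2 and CSNK1E. All 5 are below 0, as were those of 54.7% of all genes, and the median over all genes was -0.06. Relative to that median CRY1 stood at 0.01 and the other 4 remained below 0. CLOCK had a rate of 177 in STM2457 and 192 in DMSO, and CRY1 had 41.1 in STM2457 and 42.6 in DMSO. NR1D2 had 37.8 in STM2457 and 43.1 in DMSO. The kinases, which act on the Period proteins, had 412 in STM2457 and 460 in DMSO for CSNK1D, and 1986 in STM2457 and 2271 in DMSO for CSNK1E. The genes whose half-life passed 1.5-fold thus had synthesis rates 1.09-fold (CLOCK) and 1.14-fold (NR1D2) lower in STM2457.

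**Figure D3:**
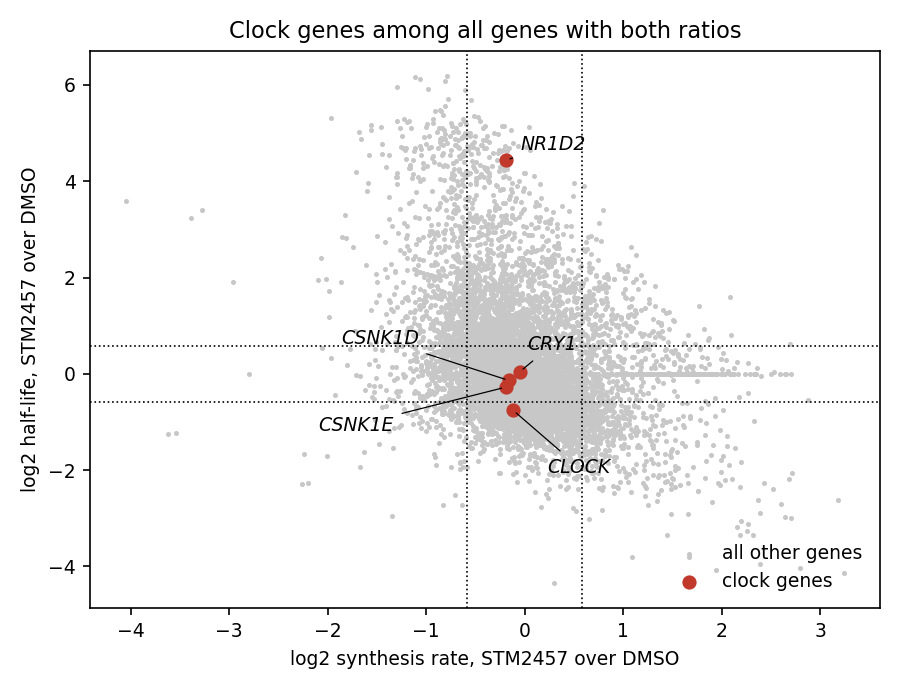
Log2 ratio of synthesis rates (x axis) and of half-lives (y axis), STM2457 over DMSO, for the 5 clock genes (red) and the other genes with both ratios (grey), with dotted lines at 1.5-fold. NR1D2 stands at 4.44 on the half-life axis and CLOCK at -0.76, while all 5 genes lie between -0.19 and -0.05 on the synthesis axis.

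A fitted synthesis rate divided by a decay rate gives the level at which an mRNA would settle. For CLOCK this level in STM2457 was 0.546 times that in DMSO, for CSNK1E 0.721, for CSNK1D 0.814 and for CRY1 0.995. At these rates the CLOCK level would stand at 0.563 times the DMSO level after 6 h, the longest time from the start of treatment to the end of labelling. NR1D2 would settle at 19.0 times its DMSO level, but 6 h of synthesis with no decay, starting from the settled DMSO level, would give 2.14 times that level. The settled level lies above this bound for NR1D2 alone among the 5 genes and for 23.4% of all genes. No mRNA level was measured in the table, so none of these values can be checked against one.

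The title of the study names m6A sites within coding sequence, so the ratios were also set beside the coding motifs. NR1D2, with 14 far coding motifs, belongs to the 2206 genes with 10 or more. In that class the median log2 half-life ratio was 0.47 and 45.5% of genes were longer-lived past 1.5-fold. In STM2457, 9.16% of that class reached the ceiling. The share was 16.8% with 0 far motifs, 9.95% with 1 to 3 and 6.75% with 4 to 9. The classes also differed in DMSO, with a median half-life of 2.81 h for 10 or more far motifs and 9.41 h for 0. CSNK1D and CSNK1E belong to the 2036 genes with 0. The median log2 half-life ratio there was -0.22, and their ratios of -0.14 and -0.28 lie on either side of it. CRY1 belongs to the 2592 genes with 1 to 3, with a median of -0.22 against its own 0.04. CLOCK belongs to the 1777 genes with 4 to 9, with a median of -0.03 and 23.2% of genes shorter-lived, against its own -0.76. The motif is a sequence and not a measure of m6A, and 5 genes allow no test of a relation. CLOCK also had the most motifs in the 3′ UTR, 136 against 64 in NR1D2, 22 in CSNK1E, 19 in CRY1 and 6 in CSNK1D. This order is also that of 3′ UTR length, with 7512 nt in CLOCK, 3199 in NR1D2, 1279 in CSNK1E, 638 in CRY1 and 249 in CSNK1D. Both orders hold for the transcript with the longest coding sequence, and the 3′ UTRs of other transcripts were not counted. The contrast between NR1D2 and the kinases depends on the distance: at 50 nt or more from a junction NR1D2 held 22 coding motifs, CSNK1D 11 and CSNK1E 4. The absent genes carried far coding motifs as well, 11 in PER2, 9 in PER1, 6 in CRY2 and 4 each in PER3 and ARNTL.

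The wider clock was described with 5 lists of 70 genes, of which 53 were in the table: half-lives were longer past 1.5-fold in 14, shorter in 11 and neither in 28, with a median log2 ratio of 0.00. As shares these are 26.4% longer-lived and 20.8% shorter-lived, near those of all genes. Transcription factors of the accessory loops were nearly missing, with 12 of 13 absent, NR1D1 and the ROR genes among them. The one present was ARNTL2, a paralogue of ARNTL, at 3.18 h in STM2457 and 4.55 h in DMSO, a log2 ratio of -0.52. Its synthesis rate was 8.65 in STM2457 and 25.0 in DMSO, a log2 ratio of -1.53 that passes 1.5-fold.

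Of 5 other casein kinase 1 genes, 4 were present, 2 shorter-lived and 2 within 1.5-fold, beside 24.9% of all genes shorter-lived and 28.5% longer-lived. CSNK1A1, a priming kinase of many substrates, had 3.15 h in STM2457 and 5.36 h in DMSO (log2 ratio -0.77), and CSNK1G2 had 6.12 h in STM2457 and 9.75 h in DMSO (-0.67). CSNK1G1, at -0.30, and CSNK1G3, at 0.26, stayed within the rule. Together with CSNK1D and CSNK1E, 5 of the 6 kinases of the family in the table had a log2 half-life ratio below 0. The same held for 4520 of the 8996 genes.

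Genes that modify Period and Cryptochrome proteins or mark them for degradation numbered 18 in the table, with longer half-lives in 5, shorter ones in 2 and a median log2 ratio of 0.05. These are 27.8% and 11.1% of the list, beside 28.5% longer-lived and 24.9% shorter-lived among all genes. SKP1, a subunit of the SCF ubiquitin ligases, had the highest ratio, with the ceiling of 69.3 h in STM2457 and 16.9 h in DMSO, and PPP5C, a phosphatase that regulates the kinases, the lowest, with 4.76 h in STM2457 and 9.06 h in DMSO. Of 20 partners of the clock complexes, 7 (35%) had longer half-lives and 4 (20%) shorter ones, beside 28.5% and 24.9% of all genes, with a median log2 ratio of 0.14. CREBBP, a histone acetyltransferase recruited by CLOCK and ARNTL, had the highest ratio, with 7.59 h in STM2457 and 2.11 h in DMSO. Among 11 output genes, 2 (18.2%) had longer half-lives and 3 (27.3%) shorter ones, beside the same 28.5% and 24.9% of all genes, with a median log2 ratio of 0.15. PPARGC1B, a transcriptional coactivator, had 1.82 h in STM2457 and 1.05 h in DMSO, and SREBF1, a regulator of lipid synthesis, had 1.60 h in STM2457 and 5.13 h in DMSO.

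**Figure D4:**
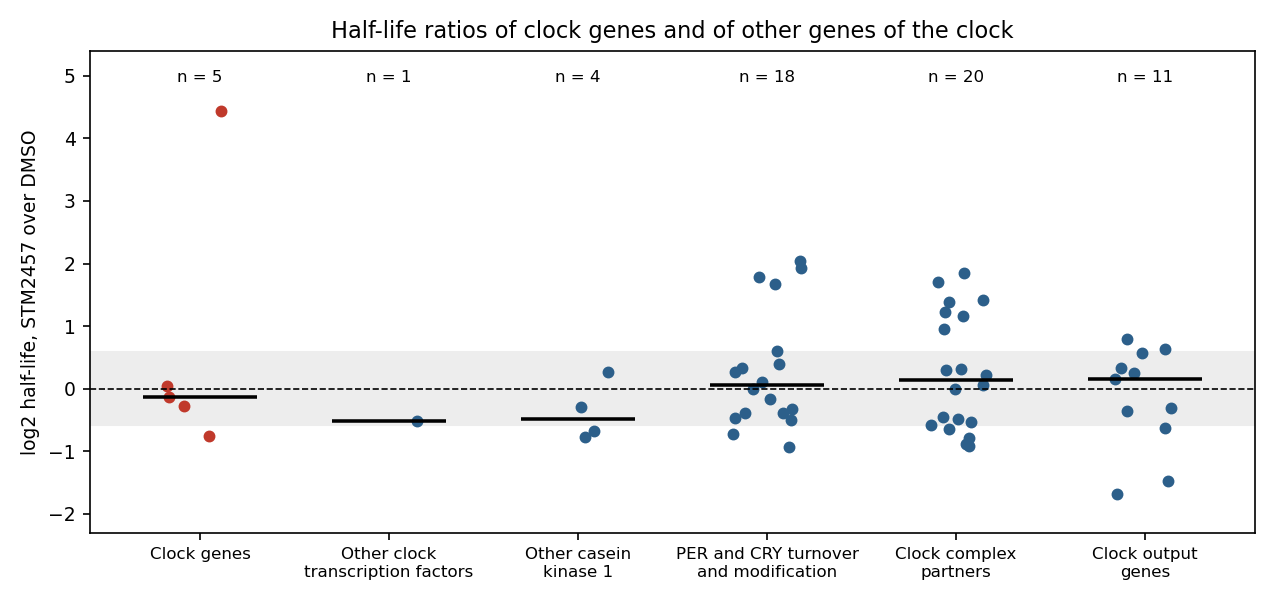
Log2 half-life ratio, STM2457 over DMSO, of the 5 clock genes (red) and of 5 lists of other genes of the clock (blue); points are genes, black bars list medians, the grey band the range within 1.5-fold and the dashed line the median of all genes. NR1D2, at 4.44, lies above every other gene shown, and list medians lie between -0.52 and 0.15.

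By the 4 fitted values (half-life and synthesis rate in both treatments, on the log2 scale), the gene nearest to CRY1 among 7949 under the ceiling was ARFGEF1, at a distance of 0.05, with half-lives of 5.05 h in STM2457 and 4.82 h in DMSO. The nearest to CLOCK was RPS6KA5, at 0.26, the nearest to CSNK1D was KIF20B, at 0.24, and the nearest to CSNK1E was CBX6, at 0.33. No nearest gene was sought for NR1D2, which is at the ceiling in STM2457. RPS6KA5 was at 1.36 h in STM2457 and 1.83 h in DMSO, a log2 ratio of -0.42 that does not pass 1.5-fold.

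For the series as a whole, METTL3 mRNA had a half-life of 3.51 h in STM2457 and 4.00 h in DMSO, which checks nothing, since the compound acts on the protein. Of its partners, METTL14 had 3.22 h in STM2457 and 1.46 h in DMSO, and WTAP was at the ceiling in STM2457 and had 1.97 h in DMSO. Of the embryonic kidney and neural genes reported in HEK293 lines, SALL1, NEFL, NEFM and INA were in the table. The longest-lived of these 4, NEFM, a neurofilament subunit, had 10.5 h in STM2457 and 15.4 h in DMSO. Of 12 markers of other cell types, 1 was in the table, COL1A1, a fibroblast collagen, at 29.1 h in STM2457 and 7.85 h in DMSO. The labels state that 1 library of the pool had a lower input and do not tie it to a sample, and its part in these values was not tested.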

How the data were processed

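Per the labels' protocols, 5 µg of RNA per sample was alkylated, 3′ mRNA libraries were amplified in 15 PCR cycles, and 24 libraries were pooled, of which 18 belong to the samples described here. The submitters' processing notes name STAR 2.7.8a, FastQC 0.11.9 and the build GRCh38.p12. Details of the fit (program, annotation and gene filter) were not given in the sources used here. For each gene and treatment the authors deposited 1 half-life and 1 synthesis rate, and they also deposited log2 ratios; the log2 ratios recomputed from the deposited columns differed by at most 1.27e-14. No counts are given, so the depth is unknown.

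From these values, log2 ratios of STM2457 over DMSO, counts past 1.5-fold, settled levels (synthesis rate over decay rate) and their bound after 6 h were computed. A half-life within 1e-06 of the largest one counted as at the ceiling. Motifs were counted on the GENCODE 29 transcript with the longest coding sequence (8611 genes; 8982 of 8996 identifiers matched without version). Gene coordinates are from GENCODE 29.

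The text names all 10 clock genes, METTL3 and the genes with the highest and lowest ratio of each list. It also names all genes of lists with under 8 genes in the table. The nearest gene is named for each fitted clock gene under the ceiling, which leaves out NR1D2. Some genes that this rule names are not reported here. Genes that overlap a clock gene are named for their position, and the partners of METTL3 as a list of under 8 genes. The clock genes and lists were chosen with earlier results of these data known. Scripts were tested on simulated data. The tools were Matplotlib 3.10.9, pandas 2.3.3, NumPy 2.4.6 and Python 3.11.15. Alternative settings covered the rule of size, centring, half-life range, time behind the bound, junction distance, motif and transcript.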

Additional observations from a re-analysis of the deposited data

How the results depend on the processing

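The count of clock genes longer-lived (1), shorter-lived (1) and within 1.5-fold (3) was the same with a looser rule of size and with both ways of centring. The authors' own log2 ratios are the same quotients, so their equal counts add no support. CLOCK did not pass a 2-fold rule, which left 0 shorter-lived genes, and NR1D2 lay outside the range of 0.5 to 24 h, which left 0 longer-lived genes. The median log2 half-life ratio of -0.14 became -0.13 after centring on all genes, -0.33 after centring on genes in the same decile of DMSO half-lives, and -0.21 in that range. On the decile-centred scale CLOCK stood at -1.09 and NR1D2 at 4.24. Because the deciles are cut on the denominator of the ratio, error in DMSO half-lives can also move values on this scale. The median log2 synthesis ratio of -0.16 became -0.10 after centring and -0.14 within the range, with 0 genes past any size rule. A bound of 4.5 h in place of 6 h again left NR1D2 alone above it. This outcome was fixed in advance, because the shorter time lowers the bound and the other fitted clock genes settle below their DMSO level. For the other genes of the clock, 14 longer-lived and 11 shorter-lived genes became 18 and 21 with the looser rule, with 14 within it, and 10 and 2 with the 2-fold rule, and the range gave 9 longer-lived genes and a median of -0.23; after centring on all genes the median was 0.0046. The 21 far coding motifs of the 5 genes became 63 at 50 nt, 3 at 200 nt (all in NR1D2) and 4 with the core GGAC. Of these 4, NR1D2 held 2 and CRY1 and CLOCK 1 each. The APPRIS principal transcript gave the same 21. For CSNK1D it is another transcript than the one used, and 3′ UTR motifs were not recounted on it. The log2 half-life ratios of single clock genes kept their sign after both ways of centring. The range and the authors' ratios leave the value of a single gene as it was, so they are no check of its sign. The log2 synthesis ratio of CRY1 changed from -0.05 to 0.0074 after centring on all genes.

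No paired analysis was possible because each treatment has a single fitted value per gene, with no column for a sample, and leaving out a replicate gives no value for the same reason. The ceiling limits NR1D2: its half-life in STM2457 is known only as the largest value in the table. Depth and error of each fit are unknown.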
